A study of Homo sapiens with 14 samples.

Results

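The 42 interferon-stimulated genes examined here were a list of well-known members of this class, and each was found by its gene name in the table of all 19410 genes, so that every listed gene had a value in all 14 libraries. RNA was measured by mRNA sequencing in MDA-MB-231 cells, an established human triple-negative breast cancer line. Besides unedited parental cells, 3 genotypes made by CRISPR/Cas9 were sequenced, each as 2 lines: the SAP30 knockouts (SAP30-KO1, SAP30-KO2), the double knockouts of SIN3A with SIN3B (SIN3A/3B-DKO1, SIN3A/3B-DKO2) and the MLL1 knockouts (MLL1-KO1, MLL1-KO2). There were 2 libraries for each of these 7 groups. SAP30 is a subunit of the SIN3 histone deacetylase complex, SIN3A and SIN3B are its alternative scaffolds, and MLL1 (gene KMT2A, named MLL in the table) is a histone methyltransferase. According to the study's methods, guide RNA vectors were delivered by transfection or lentivirus, cells were selected with puromycin, and single knockout cells were expanded and mixed, so that a line was a mix of clones. The 2 parental libraries served as the control for all 6 lines, whether the parental cells had carried a vector was not stated, and no interferon treatment was named in the labels. The labels did not say whether the 2 libraries of a group came from separate cultures, so p-values measure the spread between libraries, which may be technical.

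Type I interferons bind a receptor at the cell surface, and the kinases JAK1 and TYK2 then phosphorylate STAT proteins, among them STAT2, which joins IRF9 in a complex that binds the promoters of interferon-stimulated genes. Many of the products bind or degrade viral RNA, block viral entry or attach the ubiquitin-like protein ISG15 to other proteins, while the cytoplasmic RNA sensors encoded by DDX58 and IFIH1 lead to further interferon production. Cancer cell lines often express part of this set without added interferon.

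Recovered reads per library, worked out from the steps between low values, ranged from 18415036 to 23162682. The values are in TPM, a share of all transcripts that is corrected for gene length, and fold changes below are on the log2(TPM + 0.5) scale with limma's standard error after the ± sign. The targeted RNAs served as a check of the labels. SAP30 was 78.9 and 82.8 TPM in parental cells and between 2.75 and 4.96 in the 4 SAP30-KO libraries. SIN3B fell in both SIN3A/3B-DKO lines (log2 fold change -0.61 and -0.71), but SIN3A RNA was higher than in parental cells. It was 60.6 and 62.5 TPM for SIN3A/3B-DKO1 and 55.1 and 55.2 for SIN3A/3B-DKO2, where parental cells had 43.1 and 45.4. The RNA thus did not bear out the label for SIN3A, but RNA does not measure protein. The study's methods state that knockout cells were checked by immunoblot. These are the libraries labelled SIN3A/3B-DKO throughout. MLL fell in both MLL1-KO lines (-1.64 and -0.97) and also in both SAP30-KO lines (-0.95 and -0.65). The mesenchymal marker VIM was at 5740 TPM or more in every library, and the leukocyte gene PTPRC did not exceed 0.603 TPM while the T cell gene CD3E was at or near 0. The leukocyte marker LYZ reached 6.32 TPM, with log2 fold changes from 0.27 in SIN3A/3B-DKO2 to 1.76 in MLL1-KO1. CD14 reached 3.98 TPM, with log2 fold changes from -1.05 in MLL1-KO1 to 0.65 in SAP30-KO1. Summed TPM of fibroblast markers ranged from 5.05 in a parental library to 13.5 in an MLL1-KO1 library, that of endothelial markers from 3.31 in MLL1-KO1 to 9.61 in MLL1-KO2, and that of hormone receptor, ERBB2 and epithelial markers (ESR1, PGR, ERBB2, CDH1, EPCAM) from 32.3 to 63.3, the highest values being parental. Summed leukocyte marker TPM, nearly all of it the antigen-presentation gene CD74, was 92.7 to 99.9 in parental libraries, 201 to 213 in SAP30-KO, 105 to 117 in SIN3A/3B-DKO, 179 to 185 in MLL1-KO1 and 89.3 to 90.4 in MLL1-KO2. CD74 is itself known to be inducible by interferon, and its part in the results below was not tested. In bulk RNA, fewer cells of a type and less RNA per cell cannot be told apart.

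In parental cells 28 of the 42 genes had a mean of at least 10 TPM. The most abundant was IFITM3 with 851 and 788 TPM, followed by IFITM2 with 252 and 244, IFIT3 with 191 and 195 and DDX58 with 110 and 106. Thus a good part of the set was expressed without any knockout. Genes at 1 TPM or more in at least 2 libraries were tested, which kept 40 of the 42. The 2 left out were CMPK2, with at most 1 read in any library, and RSAD2 (viperin, an antiviral enzyme), which ranged from 0.0793 TPM in an MLL1-KO2 library to 0.871 TPM in a SAP30-KO1 library. IFI44L alone among the 40 was under 1 TPM in both parental libraries and passed through its levels in edited lines. Its higher calls were thus favoured by the filter and give no support of their own. The counts of higher members in SAP30-KO1 and MLL1-KO2 below include it.

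The edited lines differed in the direction in which these genes moved. A gene was called when its limma adjusted p was under 0.05 and its change at least 1.5-fold. In SAP30-KO1 15 of the 40 tested members were higher than in parental cells and 1 was lower, whereas 7.8% of all 13540 genes tested were called higher and 7.86% lower. SAP30-KO2 had 8 members higher and 1 lower, beside 7.44% and 8.12% of all genes. In SIN3A/3B-DKO1 3 members were higher and 5 lower, against a background of 7.76% and 8.66%, and in SIN3A/3B-DKO2 1 was higher and 7 were lower, against 6% and 7.56%. The MLL1-KO lines had the most lower calls. MLL1-KO1 had 18 members lower and 1 higher where 16.3% of all genes were lower and 6.89% higher. MLL1-KO2 had 13 lower and 9 higher where 14.9% were lower and 10.2% higher.

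The medians over the members followed the order of the lower calls, in which the SAP30-KO lines were equal. The 9 higher calls in MLL1-KO2 did not follow that order. The median log2 fold change of the 40 members was 0.34 in SAP30-KO1 and 0.15 in SAP30-KO2, where the medians of all genes were 0.03 and 0.01. It was -0.08 in SIN3A/3B-DKO1 and -0.14 in SIN3A/3B-DKO2, beside all-gene medians of 0 and 0.01. In MLL1-KO1 the members' median was -0.55 and that of all genes -0.09, and in MLL1-KO2 these were -0.23 and -0.04. The all-gene median in MLL1-KO1 moved up by 0.13 under quantile normalization, which left 14 members lower and 2 higher there and 11 lower and 9 higher in MLL1-KO2. Of all called genes, the share that was lower then went from 70.3% to 51.6% in MLL1-KO1 and from 59.3% to 48.4% in MLL1-KO2. That is a split of the called genes by direction and not a share of all genes tested. The member counts under quantile normalization are therefore not set against a background.

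**Figure D1:**
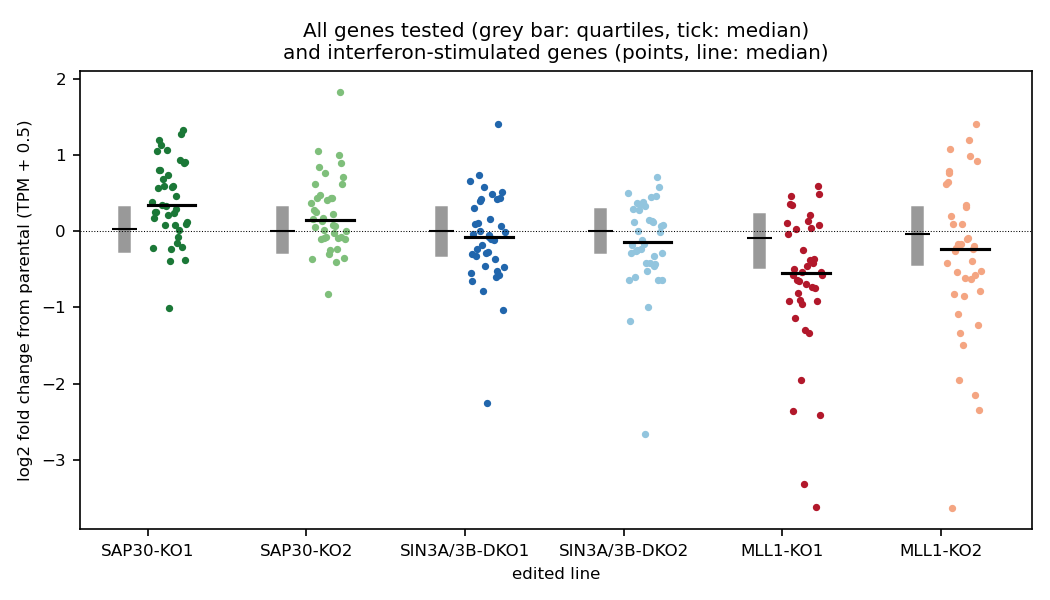
Log2 fold change from parental on the vertical axis for each edited line. Grey bars span the quartiles of all 13540 genes tested with their median as a tick, points are the 40 interferon-stimulated genes, and the black line is the members' median, which lies at 0.34 in SAP30-KO1 and at -0.55 in MLL1-KO1.

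**Figure D2:**
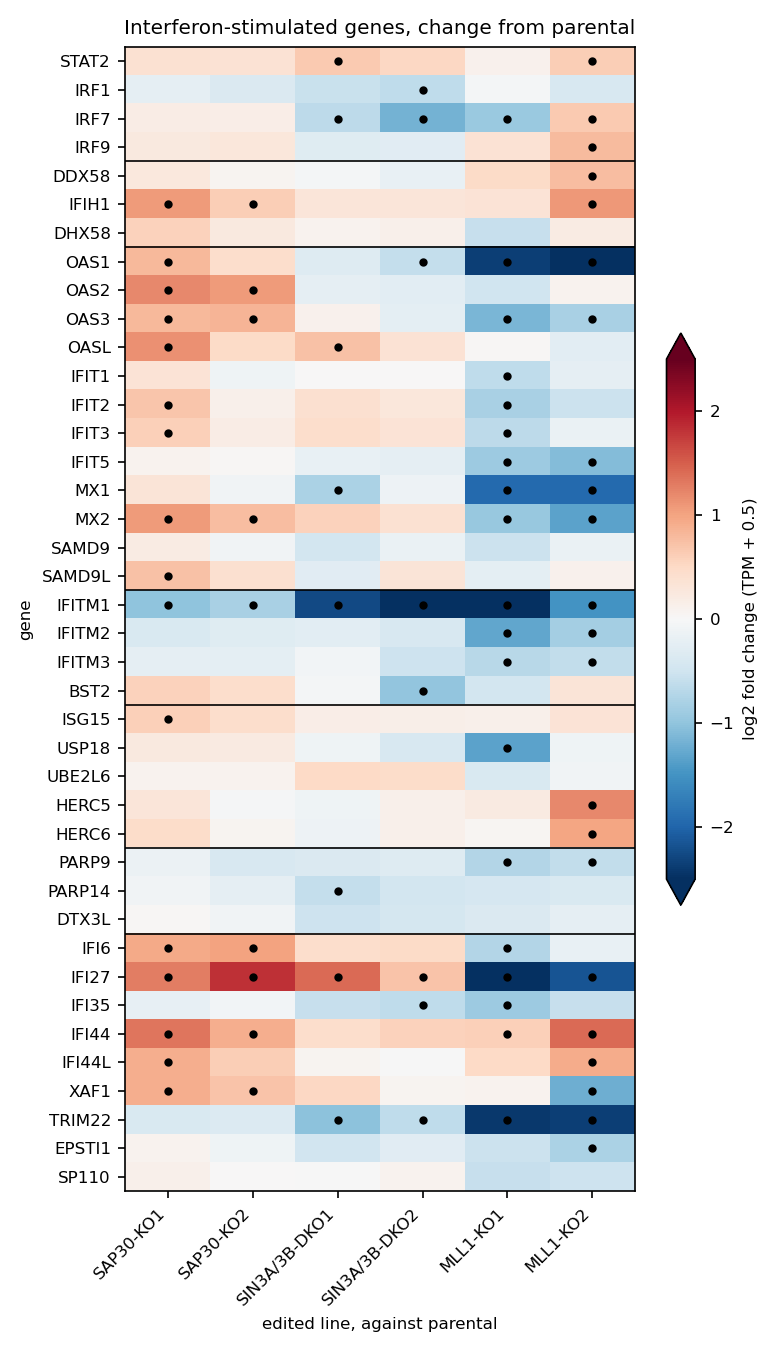
Log2 fold change from parental (colour, cut off at the ends of the scale) of the 40 tested genes in rows, grouped by role with black lines between groups, in the 6 edited lines. Black dots mark called changes. IFITM1 is blue in every column, and the OAS to SAMD9L block of 12 genes holds 8 higher calls in SAP30-KO1 and 8 lower calls in MLL1-KO1. Of all genes, 7.8% were called higher in SAP30-KO1 and 16.3% lower in MLL1-KO1.

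To show what the best known response elements look like in these genes, promoters (250 bases before to 50 after the transcription start) were taken from RefSeq on GRCh38.p14 for the 33 members that had an entry, 45 starts in all. The letters GAAANNGAA, a core of the interferon-stimulated response element, were found on either strand in 27 of these 45 promoters (60%) and in 8.11% of all 35116 promoters. TTCNNNGAA, the core of the gamma-activated site, was found in 12 (26.7%) and in 7.66% of all. The matches describe letters and not bound sites. Below are the members with the highest and the lowest mean change over the 6 lines among those called, IFI44 and IFITM1, and then IFI27 and OAS1, which held a motif and moved in both directions. Capitals mark either motif, which may overlap, and each sequence is the first start listed for its gene, all on the plus strand.
IFI44 (chr1:78649581-78649880): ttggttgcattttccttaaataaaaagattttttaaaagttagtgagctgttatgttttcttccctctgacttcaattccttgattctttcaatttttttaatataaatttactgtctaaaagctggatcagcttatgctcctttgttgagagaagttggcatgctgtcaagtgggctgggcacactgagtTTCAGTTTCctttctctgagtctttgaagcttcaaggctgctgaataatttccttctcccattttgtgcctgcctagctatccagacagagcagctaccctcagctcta
IFITM1 (chr11:313790-314089): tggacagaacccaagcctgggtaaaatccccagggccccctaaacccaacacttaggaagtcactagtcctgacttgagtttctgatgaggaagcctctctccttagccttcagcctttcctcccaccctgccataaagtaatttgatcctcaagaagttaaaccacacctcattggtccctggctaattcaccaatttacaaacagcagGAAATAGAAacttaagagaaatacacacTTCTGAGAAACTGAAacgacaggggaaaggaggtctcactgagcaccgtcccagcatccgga
IFI27 (chr14:94110565-94110864): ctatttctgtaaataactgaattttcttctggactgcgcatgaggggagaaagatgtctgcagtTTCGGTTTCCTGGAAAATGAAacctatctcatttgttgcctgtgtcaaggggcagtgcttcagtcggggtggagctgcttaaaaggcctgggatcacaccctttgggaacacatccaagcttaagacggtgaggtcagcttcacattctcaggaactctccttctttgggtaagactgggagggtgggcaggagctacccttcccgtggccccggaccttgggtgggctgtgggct
OAS1 (chr12:112906712-112907011): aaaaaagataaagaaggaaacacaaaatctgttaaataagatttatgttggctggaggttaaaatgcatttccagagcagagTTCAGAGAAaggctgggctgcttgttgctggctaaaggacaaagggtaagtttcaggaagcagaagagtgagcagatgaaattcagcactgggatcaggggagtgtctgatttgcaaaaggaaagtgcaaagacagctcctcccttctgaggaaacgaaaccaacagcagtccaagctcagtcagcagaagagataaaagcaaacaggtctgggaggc
The IFITM1 promoter held GAAANNGAA at 2 places and TTCNNNGAA at 1, overlapping the second of them. IFI27 held the same numbers of matches, with one GAAANNGAA on the minus strand. IFI44 held GAAANNGAA once, on the minus strand. Of the 2 motifs searched, OAS1 held TTCNNNGAA alone. Its sequence also holds gaaacgaaa, with 1 base between the repeats, which the letters GAAANNGAA cannot match.

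Among the transcription factors, no member was called in a SAP30-KO line, and 3 of the 4 rose in MLL1-KO2. Of all genes, 10.2% were called higher in MLL1-KO2, and 7.44% to 8.12% in either direction in the SAP30-KO lines. STAT2 RNA was 34.9 and 32.7 TPM in parental cells, 42.4 and 45.7 for SAP30-KO1, 44.1 and 43.5 for SAP30-KO2, 52.6 and 54.9 for SIN3A/3B-DKO1, 50.8 and 45.9 for SIN3A/3B-DKO2, 36.4 and 36.5 for MLL1-KO1 and 50 and 54.4 for MLL1-KO2. All edited libraries were above both parental ones, and the change was called in SIN3A/3B-DKO1 (0.66 ± 0.06, adjusted p = 7.5e-06) and in MLL1-KO2 (0.62 ± 0.06, adjusted p = 6.8e-06). IRF9, the DNA-binding partner of STAT2, was 32.6 and 32.1 TPM in parental cells, 37.2 and 39.7 for SAP30-KO1, 41.3 and 37.6 for SAP30-KO2, 26.7 and 25.8 for SIN3A/3B-DKO1, 28.7 and 24.5 for SIN3A/3B-DKO2, 42.9 and 40.4 for MLL1-KO1 and 53.7 and 58.7 for MLL1-KO2. Its level was highest in MLL1-KO2, where it rose (0.79 ± 0.08, adjusted p = 6e-06), and the SIN3A/3B-DKO libraries lay below the parental ones without a call (-0.30 and -0.28). IRF1, an activator of interferon-stimulated genes that responds strongly to interferon gamma, was 47 and 47.6 TPM in parental cells, 41.4 and 39.7 for SAP30-KO1, 36 and 37.3 for SAP30-KO2, 32.9 and 31.7 for SIN3A/3B-DKO1, 30.6 and 29.7 for SIN3A/3B-DKO2, 45.2 and 46.8 for MLL1-KO1 and 36.8 and 34.5 for MLL1-KO2. It was lowest in SIN3A/3B-DKO2, the single line with a call (-0.64 ± 0.05, adjusted p = 1.4e-06).

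IRF7, which drives the expression of type I interferon genes, moved in opposite directions in the MLL1-KO lines. Its RNA was 8.26 and 7.41 TPM in parental cells, 9.23 and 8.68 for SAP30-KO1, 8.34 and 9.31 for SAP30-KO2, 4.63 and 5.02 for SIN3A/3B-DKO1, 3.28 and 3.06 for SIN3A/3B-DKO2, 4.76 and 3.2 for MLL1-KO1 and 12 and 13.2 for MLL1-KO2. The MLL1-KO2 libraries were above and the MLL1-KO1 libraries below every parental library, with no overlap between the groups. IRF7 fell in MLL1-KO1 (-0.92 ± 0.14, adjusted p = 0.00023) and rose in MLL1-KO2 (0.65 ± 0.14, adjusted p = 0.0022), and the difference between these lines was itself called (-1.57 ± 0.14, adjusted p = 1e-05). IRF7 also fell in SIN3A/3B-DKO1 (-0.65 ± 0.14, adjusted p = 0.0029) and SIN3A/3B-DKO2 (-1.18 ± 0.14, adjusted p = 5.7e-05). Without parental replicate 2 the calls of STAT2 and IRF7 in MLL1-KO2 were lost at 0.57 and 0.58, that of STAT2 also without MLL1-KO2 replicate 2 at 0.56, and without parental replicate 1 that of IRF7 in SIN3A/3B-DKO1 at -0.57. When the median of the 51 neighbouring genes on the chromosome was subtracted, the MLL1-KO2 values of STAT2, IRF7 and IRF9 were 0.53, 0.53 and 0.41, and that of IRF1 in SIN3A/3B-DKO2 was -0.57, all under the fold minimum.

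Both RNA sensors that signal, DDX58 (RIG-I) and IFIH1 (MDA5), rose in MLL1-KO2. DDX58 was 110 and 106 TPM in parental cells, 131 and 128 for SAP30-KO1, 112 and 113 for SAP30-KO2, 104 and 105 for SIN3A/3B-DKO1, 88.3 and 102 for SIN3A/3B-DKO2, 148 and 150 for MLL1-KO1 and 189 and 180 for MLL1-KO2. Both MLL1-KO lines were above all other libraries, and the call was in MLL1-KO2 (0.77 ± 0.06, adjusted p = 4.5e-07), with 0.47 in MLL1-KO1. IFIH1 was 7.53 and 6.98 TPM in parental cells, 16.6 and 14.7 for SAP30-KO1, 11 and 11.8 for SAP30-KO2, 9.58 and 8.68 for SIN3A/3B-DKO1, 8.48 and 9.7 for SIN3A/3B-DKO2, 9.03 and 9.62 for MLL1-KO1 and 17.6 and 14.3 for MLL1-KO2. The parental libraries were the lowest of all, and those of SAP30-KO1 and MLL1-KO2 were the highest and overlapped. IFIH1 rose in SAP30-KO1 (1.06 ± 0.11, adjusted p = 1.6e-05), SAP30-KO2 (0.62 ± 0.11, adjusted p = 0.00076) and MLL1-KO2 (1.08 ± 0.11, adjusted p = 7.3e-06). DHX58 (LGP2), a related protein that lacks the signalling domains, was low, at 1.01 and 1.58 TPM in parental cells, 2.23 and 2.02 for SAP30-KO1, 1.78 and 1.45 for SAP30-KO2, 1.39 and 1.37 for SIN3A/3B-DKO1, 1.36 and 1.48 for SIN3A/3B-DKO2, 0.656 and 0.714 for MLL1-KO1 and 1.69 and 1.38 for MLL1-KO2, and was called in no line against parental. Without parental replicate 2, and also without SAP30-KO2 replicate 2, the SAP30-KO2 value of IFIH1 was 0.57 and no longer called.

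**Figure D3:**
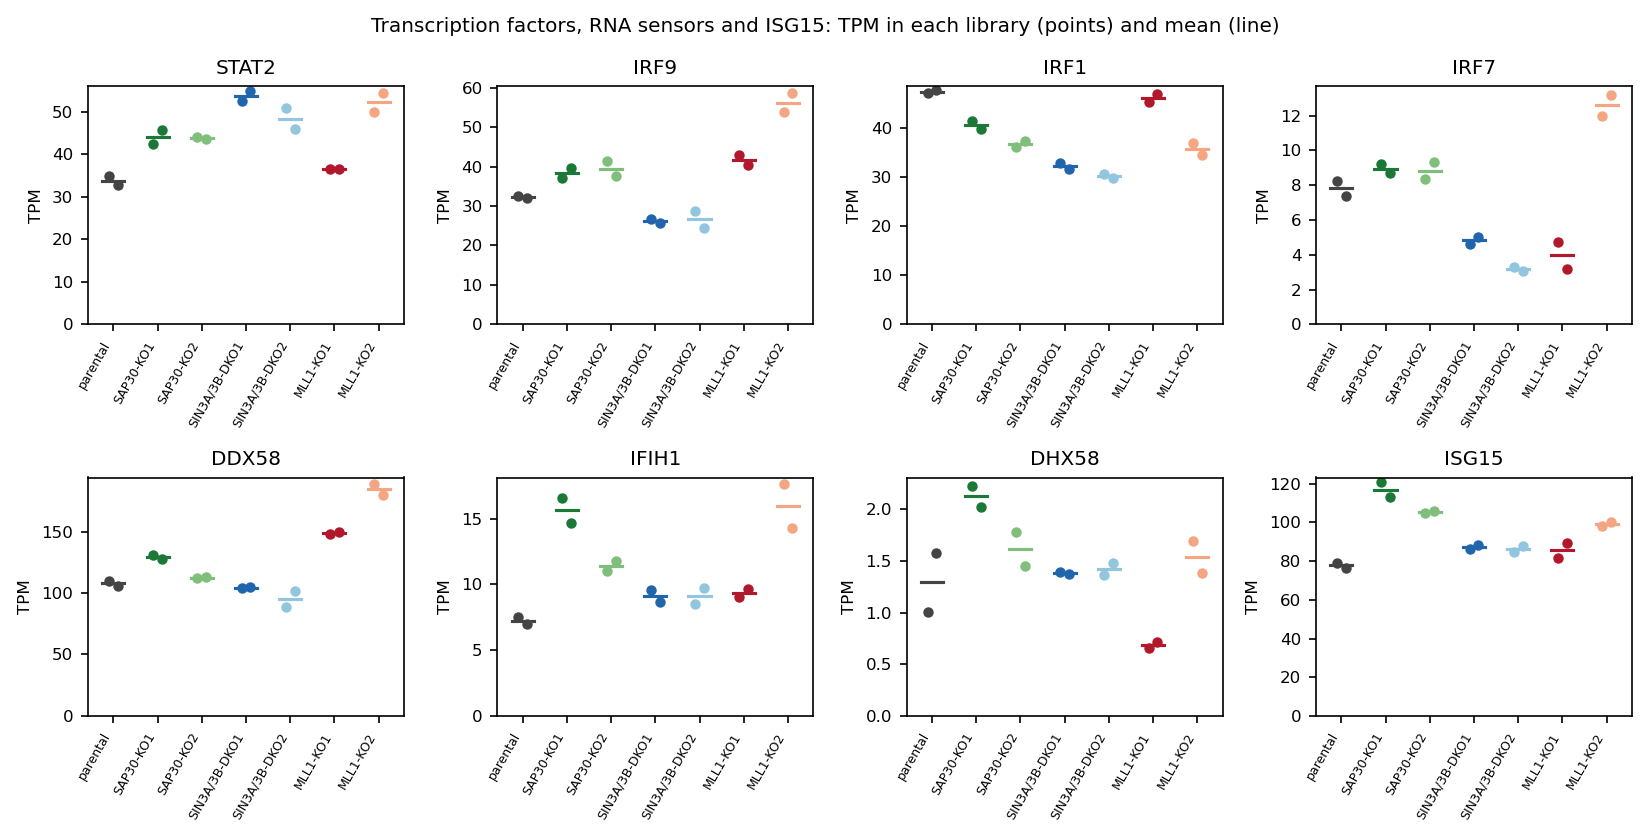
TPM on the vertical axis, from 0, for STAT2, IRF9, IRF1, IRF7, DDX58, IFIH1, DHX58 and ISG15 in the 7 groups. Points are libraries and lines the mean of 2 libraries; IRF7 lies below parental in MLL1-KO1 and above it in MLL1-KO2.

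The OAS genes encode enzymes that, on binding double-stranded RNA, make oligoadenylates that lead to the decay of RNA. OAS1, OAS3 and OAS2 lie side by side on chromosome 12 (hg19 chr12:113343661-113371024, chr12:113375856-113414265 and chr12:113416200-113449528), yet their RNAs had different patterns. OAS1 was 15.9 and 15.4 TPM in parental cells, 26.4 and 29.2 for SAP30-KO1, 20.8 and 22 for SAP30-KO2, 12.3 and 12.4 for SIN3A/3B-DKO1, 10.5 and 9.82 for SIN3A/3B-DKO2, 2.78 and 2.5 for MLL1-KO1 and 0.816 and 0.77 for MLL1-KO2. The SAP30-KO libraries were above, and the SIN3A/3B-DKO and MLL1-KO libraries below, both parental ones. OAS1 rose in SAP30-KO1 (0.81 ± 0.08, adjusted p = 9e-06) and was 0.44 in SAP30-KO2 without a call. It fell in SIN3A/3B-DKO2 (-0.60 ± 0.08, adjusted p = 8.6e-05), in MLL1-KO1 (-2.36 ± 0.08, adjusted p = 1.2e-09) and in MLL1-KO2 (-3.64 ± 0.08, adjusted p = 3.7e-11).

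OAS2 was 9.69 and 11.2 TPM in parental cells, 24.4 and 25 for SAP30-KO1, 21.8 and 22.7 for SAP30-KO2, 8.3 and 9.33 for SIN3A/3B-DKO1, 7.95 and 9.36 for SIN3A/3B-DKO2, 7.12 and 7.39 for MLL1-KO1 and 10.7 and 11.6 for MLL1-KO2. The SAP30-KO libraries were the highest, those of SIN3A/3B-DKO and MLL1-KO1 lay below both parental ones, and those of MLL1-KO2 overlapped parental. OAS2 rose with 1.20 ± 0.10, adjusted p = 2.1e-06 in SAP30-KO1 and 1.06 ± 0.10, adjusted p = 5.2e-06 in SAP30-KO2. In the MLL1-KO lines, where OAS1 had its lowest levels, OAS2 was not called, at -0.50 and 0.09. OAS3 was 17.9 and 17.3 TPM in parental cells, 31.7 and 30.7 for SAP30-KO1, 33.2 and 31.1 for SAP30-KO2, 19.2 and 18.9 for SIN3A/3B-DKO1, 14.4 and 15.1 for SIN3A/3B-DKO2, 7.61 and 7.76 for MLL1-KO1 and 9.13 and 10.4 for MLL1-KO2. It rose in SAP30-KO1 (0.81 ± 0.07, adjusted p = 3.1e-06) and SAP30-KO2 (0.85 ± 0.07, adjusted p = 2e-06) and fell in MLL1-KO1 (-1.14 ± 0.07, adjusted p = 1e-07) and MLL1-KO2 (-0.82 ± 0.07, adjusted p = 1.3e-06), with no overlap between these groups and parental. OASL, a family member that lacks the synthase activity and enhances RIG-I signalling, lies elsewhere on the same chromosome and was 21.2 and 25.9 TPM in parental cells, 51 and 53.2 for SAP30-KO1, 32.9 and 33 for SAP30-KO2, 37.7 and 41.4 for SIN3A/3B-DKO1, 30.3 and 30.5 for SIN3A/3B-DKO2, 23.2 and 24.5 for MLL1-KO1 and 18.8 and 20.2 for MLL1-KO2. It rose in SAP30-KO1 (1.14 ± 0.08, adjusted p = 1.1e-06) and SIN3A/3B-DKO1 (0.74 ± 0.08, adjusted p = 2.5e-05), and in no line did it fall by the test. The OAS1 call in SIN3A/3B-DKO2 was lost without parental replicate 1 (-0.58) and without SIN3A/3B-DKO2 replicate 2 (-0.56).

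The IFIT genes, whose products bind viral RNA and hinder its translation, form a cluster on chromosome 10. IFIT2 was 81.3 and 84.4 TPM in parental cells, 130 and 138 for SAP30-KO1, 89.5 and 92.5 for SAP30-KO2, 104 and 116 for SIN3A/3B-DKO1, 105 and 97.2 for SIN3A/3B-DKO2, 45.1 and 49 for MLL1-KO1 and 56.3 and 57.8 for MLL1-KO2 and IFIT3, its binding partner, was 191 and 195 TPM in parental cells, 284 and 297 for SAP30-KO1, 216 and 220 for SAP30-KO2, 249 and 274 for SIN3A/3B-DKO1, 254 and 238 for SIN3A/3B-DKO2, 119 and 127 for MLL1-KO1 and 173 and 172 for MLL1-KO2. Both were highest in SAP30-KO1, where they rose (0.69 and 0.59), and lowest in MLL1-KO1, where they fell (-0.81 and -0.65). IFIT1 fell in MLL1-KO1 (-0.64 ± 0.06, adjusted p = 4.4e-06) from 44.1 and 44.5 TPM to 28.2 and 28.2. IFIT5 was 43.4 and 43.1 TPM in parental cells, 44.7 and 46.9 for SAP30-KO1, 44 and 44 for SAP30-KO2, 37.4 and 38.7 for SIN3A/3B-DKO1, 35.7 and 38.2 for SIN3A/3B-DKO2, 23.5 and 22.5 for MLL1-KO1 and 19.8 and 20.6 for MLL1-KO2. It was called in the MLL1-KO lines alone, and there it fell in both (-0.90 ± 0.05, adjusted p = 5e-08, and -1.08 ± 0.05, adjusted p = 1.1e-08). After subtraction of the neighbouring genes' median, the MLL1-KO1 values of IFIT1, IFIT2 and IFIT3 were -0.33, -0.51 and -0.35 and no longer called. IFIT3 in SAP30-KO1 lost its call without parental replicate 1 (0.57) and without SAP30-KO1 replicate 2 (0.56).

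MX1 and MX2 encode dynamin-like GTPases that trap viral nucleocapsids. MX1 was low in parental cells and close to absent in the MLL1-KO lines, at 2.2 and 2.81 TPM in parental cells, 3.39 and 3.11 for SAP30-KO1, 2.19 and 2.44 for SAP30-KO2, 1.01 and 1.47 for SIN3A/3B-DKO1, 2.11 and 2.39 for SIN3A/3B-DKO2, 0.272 and 0.276 for MLL1-KO1 and 0.205 and 0.348 for MLL1-KO2. The 4 MLL1-KO libraries lay well below all others. Reads of MX1, scaled to library depth, were 8.75-fold higher in parental cells than in MLL1-KO1 (95% counting interval 5.19 to 15.8) and 8.76-fold higher than in MLL1-KO2 (5.04 to 16.5), and the calls on the log2(TPM + 0.5) scale, which understates changes of low genes, were -1.95 ± 0.17, adjusted p = 2.9e-06 and -1.95 ± 0.17, adjusted p = 2.6e-06. MX1 also fell in SIN3A/3B-DKO1 (-0.79 ± 0.17, adjusted p = 0.0028). MX2 was 1.22 and 1.06 TPM in parental cells, 3.24 and 2.66 for SAP30-KO1, 2.14 and 2.47 for SAP30-KO2, 2.07 and 1.83 for SIN3A/3B-DKO1, 2.01 and 1.31 for SIN3A/3B-DKO2, 0.456 and 0.252 for MLL1-KO1 and 0.15 and 0.141 for MLL1-KO2. The parental libraries were below all SAP30-KO and SIN3A/3B-DKO libraries and above those of MLL1-KO. MX2 rose in SAP30-KO1 (1.07 ± 0.19, adjusted p = 0.00082) and SAP30-KO2 (0.77 ± 0.19, adjusted p = 0.0061) and fell in MLL1-KO1 (-0.95 ± 0.19, adjusted p = 0.0014) and MLL1-KO2 (-1.34 ± 0.19, adjusted p = 1e-04). In MLL1-KO2 there were 3 reads in each library, and parental cells had 7.67-fold more (95% counting interval 3.28 to 21.9). Under quantile normalization MX2 in MLL1-KO1 was -0.47 and not called. SAMD9L, a restriction factor and growth regulator, rose in SAP30-KO1 (0.74 ± 0.11, adjusted p = 0.00025), and its paralog SAMD9 was called in no line.

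**Figure D4:**
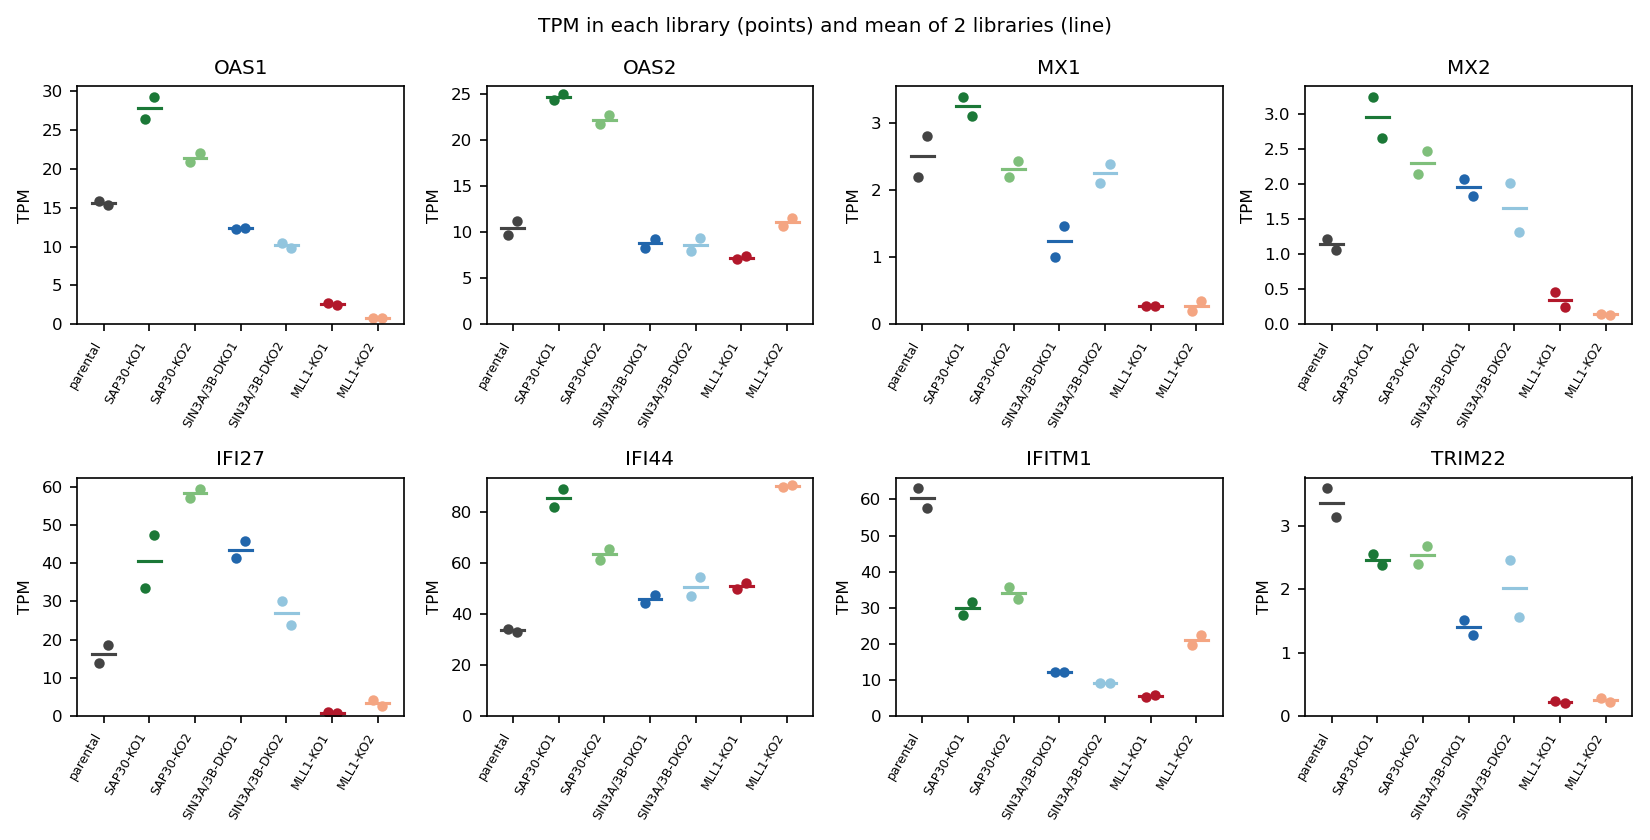
TPM on the vertical axis, from 0, for 8 effector genes in the 7 groups, with points for libraries and lines for the mean of 2 libraries. OAS1, MX1, MX2, IFI27 and TRIM22 sit near 0 in the MLL1-KO lines, while IFI44 is above parental in all 12 edited libraries and IFITM1 below it.

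Among the 4 membrane restriction factors no member was called higher in any line, where 6% to 10.2% of all genes were. BST2 was nonetheless above parental in SAP30-KO1 (0.58 ± 0.07, limma adjusted p = 3.9e-05), just under the fold minimum. It was 0.44 ± 0.07 in SAP30-KO2 and 0.32 ± 0.07 in MLL1-KO2. IFITM1, which blocks the fusion of viral and cell membranes, was 63.2 and 57.7 TPM in parental cells, 28.1 and 31.5 for SAP30-KO1, 35.7 and 32.3 for SAP30-KO2, 12.3 and 12.1 for SIN3A/3B-DKO1, 9.11 and 9.14 for SIN3A/3B-DKO2, 5.3 and 5.9 for MLL1-KO1 and 19.6 and 22.5 for MLL1-KO2. Every edited library was below both parental libraries. IFITM1 fell in SAP30-KO1 (-1.01 ± 0.09, adjusted p = 4.3e-06), SAP30-KO2 (-0.82 ± 0.09, adjusted p = 1.9e-05), SIN3A/3B-DKO1 (-2.26 ± 0.09, adjusted p = 2.3e-08), SIN3A/3B-DKO2 (-2.66 ± 0.09, adjusted p = 1.1e-08), MLL1-KO1 (-3.32 ± 0.09, adjusted p = 2.6e-10) and MLL1-KO2 (-1.50 ± 0.09, adjusted p = 8.1e-08). All 6 comparisons use the same parental libraries. Its neighbours on chromosome 11, IFITM2 and IFITM3, are near-identical in sequence to one another, so that reads shared between them make their split uncertain. IFITM2 was 252 and 244 TPM in parental cells, 194 and 185 for SAP30-KO1, 208 and 197 for SAP30-KO2, 209 and 203 for SIN3A/3B-DKO1, 198 and 177 for SIN3A/3B-DKO2, 107 and 95 for MLL1-KO1 and 132 and 143 for MLL1-KO2. It fell in MLL1-KO1 (-1.30 ± 0.07, adjusted p = 2.9e-08) and MLL1-KO2 (-0.85 ± 0.07, adjusted p = 8e-07). IFITM3 was 851 and 788 TPM in parental cells, 698 and 698 for SAP30-KO1, 698 and 687 for SAP30-KO2, 789 and 769 for SIN3A/3B-DKO1, 601 and 540 for SIN3A/3B-DKO2, 498 and 514 for MLL1-KO1 and 531 and 545 for MLL1-KO2, and fell in the same lines (-0.69 ± 0.05, adjusted p = 4e-07, and -0.61 ± 0.05, adjusted p = 1.1e-06). In the other lines neither was called, with values between -0.41 and -0.27 for IFITM2 and between -0.52 and -0.07 for IFITM3, which in SIN3A/3B-DKO1 overlapped parental.

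BST2 (tetherin), which holds budding virus at the cell surface, separated the SIN3A/3B-DKO lines. It was 66.6 and 72.7 TPM in parental cells, 108 and 101 for SAP30-KO1, 97.3 and 91.5 for SAP30-KO2, 66.3 and 67.8 for SIN3A/3B-DKO1, 35 and 34.6 for SIN3A/3B-DKO2, 47.5 and 54.5 for MLL1-KO1 and 84.3 and 89.7 for MLL1-KO2. The SIN3A/3B-DKO1 libraries lay near parental and the SIN3A/3B-DKO2 libraries below all others, where BST2 fell (-0.99 ± 0.07, adjusted p = 9.5e-07). The IFITM3 call in MLL1-KO2 was lost without parental replicate 1 (-0.55).

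In the ISG15 system, 2 of the 5 tested genes rose in MLL1-KO2 and 1 fell in MLL1-KO1. Of all genes, 10.2% were called higher in MLL1-KO2 and 16.3% lower in MLL1-KO1. ISG15, the ubiquitin-like modifier, was 78.9 and 76.7 TPM in parental cells, 121 and 113 for SAP30-KO1, 105 and 106 for SAP30-KO2, 86.1 and 88.4 for SIN3A/3B-DKO1, 84.9 and 87.6 for SIN3A/3B-DKO2, 81.8 and 89.4 for MLL1-KO1 and 98.4 and 100 for MLL1-KO2. Every edited library was above parental, but the call in SAP30-KO1 (0.59 ± 0.05, adjusted p = 2.1e-06) was just over the fold minimum. It was lost without parental replicate 2 (0.57), without SAP30-KO1 replicate 1 (0.54), and with a pseudocount of 1 (0.58). HERC5, the main ligase for ISG15, was 32.6 and 31.2 TPM in parental cells, 37.9 and 41.1 for SAP30-KO1, 31.3 and 31.7 for SAP30-KO2, 28.4 and 31.1 for SIN3A/3B-DKO1, 32 and 38.2 for SIN3A/3B-DKO2, 37 and 37.2 for MLL1-KO1 and 77.1 and 70.6 for MLL1-KO2. It was high in MLL1-KO2 alone (1.20 ± 0.08, adjusted p = 2.4e-07), as was its neighbour on chromosome 4, HERC6 (0.99 ± 0.10, adjusted p = 8.7e-06), at 27.4 and 25.7 TPM against 13.2 and 13 in parental cells. USP18, which removes ISG15 and restrains the interferon receptor, went from 1.64 and 1.12 TPM to 0.241 and 0.245 in MLL1-KO1 (-1.33 ± 0.20, adjusted p = 0.00015) and was 1.31 and 1.16 in MLL1-KO2. UBE2L6, the conjugating enzyme, was called in no line.

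PARP9, PARP14 and DTX3L lie together on chromosome 3, and PARP9 and DTX3L form a complex that modifies histones and ubiquitin. PARP9 was 6.8 and 6.48 TPM in parental cells, 6.54 and 5.35 for SAP30-KO1, 5.1 and 4.74 for SAP30-KO2, 5.2 and 4.86 for SIN3A/3B-DKO1, 4.57 and 5.86 for SIN3A/3B-DKO2, 4.06 and 3.58 for MLL1-KO1 and 4.24 and 4.08 for MLL1-KO2. The MLL1-KO libraries were the lowest, and a SAP30-KO1 library lay within the parental range. PARP9 fell in MLL1-KO1 (-0.73 ± 0.13, adjusted p = 0.00049) and MLL1-KO2 (-0.62 ± 0.13, adjusted p = 0.0014). PARP14 fell in SIN3A/3B-DKO1 (-0.60 ± 0.07, adjusted p = 2.4e-05), and DTX3L was not called, with values from -0.52 to 0.02. Without parental replicate 1 PARP9 in MLL1-KO2 was -0.58, and without parental replicate 2 or SIN3A/3B-DKO1 replicate 2 PARP14 in SIN3A/3B-DKO1 was -0.58, none of them called. After subtraction of the neighbouring genes' median PARP9 was -0.57 and -0.50 in the MLL1-KO lines and PARP14 -0.55 in SIN3A/3B-DKO1, also under the fold minimum.

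The remaining genes held the widest range. IFI27, which encodes a small mitochondrial and nuclear protein, was 13.9 and 18.6 TPM in parental cells, 33.5 and 47.5 for SAP30-KO1, 57.1 and 59.5 for SAP30-KO2, 41.3 and 45.8 for SIN3A/3B-DKO1, 30.2 and 23.8 for SIN3A/3B-DKO2, 0.941 and 0.764 for MLL1-KO1 and 4.08 and 2.56 for MLL1-KO2. All MLL1-KO libraries were below both parental ones, and all other edited libraries were above. IFI27 rose in SAP30-KO1 (1.28 ± 0.21, adjusted p = 5e-04), SAP30-KO2 (1.83 ± 0.21, adjusted p = 3.8e-05), SIN3A/3B-DKO1 (1.41 ± 0.21, adjusted p = 0.00025) and SIN3A/3B-DKO2 (0.72 ± 0.21, adjusted p = 0.016). It fell in MLL1-KO1 (-3.62 ± 0.21, adjusted p = 1.1e-07) and MLL1-KO2 (-2.15 ± 0.21, adjusted p = 6.3e-06). MLL1-KO1 had 9 reads in all against 150 in parental cells, a ratio of 18.2 (95% counting interval 9.35 to 40.6). In SIN3A/3B-DKO2 the value was 0.52 without parental replicate 1 and 0.55 without SIN3A/3B-DKO2 replicate 1, with adjusted p of 0.14 and 0.11 by limma.

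IFI44, a cytoplasmic protein of the response, was 34.3 and 33.1 TPM in parental cells, 82.1 and 89.2 for SAP30-KO1, 61.3 and 65.6 for SAP30-KO2, 44.4 and 47.5 for SIN3A/3B-DKO1, 47.1 and 54.4 for SIN3A/3B-DKO2, 49.8 and 52 for MLL1-KO1 and 89.9 and 90.7 for MLL1-KO2. All edited libraries were above parental. It rose in SAP30-KO1 (1.33 ± 0.07, adjusted p = 1e-07), SAP30-KO2 (0.90 ± 0.07, adjusted p = 1.6e-06), MLL1-KO1 (0.59 ± 0.07, adjusted p = 2.5e-05) and MLL1-KO2 (1.41 ± 0.07, adjusted p = 2e-08), but MLL1-KO1 was 0.56 without parental replicate 2 or without MLL1-KO1 replicate 2. Its neighbour IFI44L was called higher in SAP30-KO1 (0.90 ± 0.27, adjusted p = 0.017) and MLL1-KO2 (0.93 ± 0.27, adjusted p = 0.011) at no more than 1.35 TPM, and each call was lost without parental replicate 2 (limma adjusted p = 0.12 and 0.085), the first also without SAP30-KO1 replicate 1 (0.067) or 2 (0.058).

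IFI6, an inhibitor of apoptosis in mitochondria, was 19.6 and 17.4 TPM in parental cells, 34.7 and 36.9 for SAP30-KO1, 40.1 and 35.2 for SAP30-KO2, 26.8 and 23.4 for SIN3A/3B-DKO1, 27.1 and 24.7 for SIN3A/3B-DKO2, 8.56 and 13.8 for MLL1-KO1 and 14.9 and 17.5 for MLL1-KO2. All SAP30-KO and SIN3A/3B-DKO libraries were above parental, MLL1-KO1 was below, and MLL1-KO2 overlapped parental. IFI6 rose in SAP30-KO1 (0.94 ± 0.17, adjusted p = 0.00098) and SAP30-KO2 (1.0 ± 0.17, adjusted p = 0.00061) and fell in MLL1-KO1 (-0.74 ± 0.17, adjusted p = 0.0035), the last at -0.41 without MLL1-KO1 replicate 1. XAF1, which promotes apoptosis, was 5.41 and 5 TPM in parental cells, 10.1 and 10.2 for SAP30-KO1, 9.54 and 8.15 for SAP30-KO2, 8.06 and 7.29 for SIN3A/3B-DKO1, 5.74 and 5.22 for SIN3A/3B-DKO2, 5.42 and 5.67 for MLL1-KO1 and 1.75 and 2.11 for MLL1-KO2. It was highest in SAP30-KO (0.91 ± 0.11, adjusted p = 4.1e-05, and 0.71 ± 0.11, adjusted p = 0.00024), near parental in MLL1-KO1, and lowest in MLL1-KO2 (-1.23 ± 0.11, adjusted p = 2e-06).

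TRIM22, a ubiquitin ligase that restricts viruses, was 3.6 and 3.14 TPM in parental cells, 2.56 and 2.38 for SAP30-KO1, 2.4 and 2.69 for SAP30-KO2, 1.52 and 1.28 for SIN3A/3B-DKO1, 2.46 and 1.57 for SIN3A/3B-DKO2, 0.238 and 0.201 for MLL1-KO1 and 0.287 and 0.225 for MLL1-KO2. Parental cells had the highest level, and the MLL1-KO libraries were near 0. It fell in SIN3A/3B-DKO1 (-1.03 ± 0.18, adjusted p = 0.00058), SIN3A/3B-DKO2 (-0.64 ± 0.18, adjusted p = 0.011), MLL1-KO1 (-2.42 ± 0.18, adjusted p = 5.6e-07) and MLL1-KO2 (-2.35 ± 0.18, adjusted p = 6.3e-07). With 148 reads in parental cells and 11 in each MLL1-KO line, the ratios were 14.7 (95% counting interval 7.99 to 30.1) for MLL1-KO1 and 12.9 (7.0 to 26.4) for MLL1-KO2. IFI35 fell in SIN3A/3B-DKO2 (-0.64) and MLL1-KO1 (-0.91), EPSTI1 fell in MLL1-KO2 (-0.79), and SP110 was called in no line. In SIN3A/3B-DKO2, TRIM22 was -0.56 without parental replicate 1 and -0.38 without SIN3A/3B-DKO2 replicate 2, and IFI35 was -0.56 without parental replicate 2 and -0.57 without SIN3A/3B-DKO2 replicate 2, none of them called. With the neighbouring genes' median subtracted, IFI35 was -0.57 in SIN3A/3B-DKO2 and -0.46 in MLL1-KO1, and EPSTI1 was -0.38 in MLL1-KO2.

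Lines of one genotype were then compared directly. The parental libraries do not enter these differences, but they do enter the shared estimate of the spread behind the standard errors and p-values. SAP30-KO1 and SAP30-KO2 differed by 1 member, OASL, which was higher in SAP30-KO1 (0.65 ± 0.08, adjusted p = 0.011), while 0.0739% of all genes were called higher and 0.0739% lower. That call was lost on leaving out any of the 4 libraries. Between SIN3A/3B-DKO1 and SIN3A/3B-DKO2, BST2 was higher in the first (0.94 ± 0.07, adjusted p = 1.8e-05) and MX1 and SAMD9L were lower (-0.67 and -0.61), beside 1.22% and 1.01% of all genes. Without SIN3A/3B-DKO2 replicate 2, 1 member was left.

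The MLL1-KO lines differed more. In MLL1-KO1 11 members were lower than in MLL1-KO2 and 2 were higher, where 7.15% of all genes were lower and 3.27% higher. The lower ones were IRF7, IFIH1, DHX58, OAS2, IFITM1, BST2, USP18, HERC5, HERC6, IFI27 and IFI44, led by IFITM1 (-1.82 ± 0.09, adjusted p = 1.1e-07) and IRF7. OAS1 (1.28 ± 0.08, adjusted p = 5.1e-07) and XAF1 (1.32 ± 0.11, adjusted p = 4.2e-06) were the higher ones.

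Genotypes were compared as the means of their lines, in the same way and the same fit. The mean of the MLL1-KO lines was lower than that of the SAP30-KO lines for 21 of the 40 members and higher for 0, and 13.5% of all genes were lower and 6.34% higher. The widest differences were in IFI27 (-4.44 ± 0.15, adjusted p = 8e-10) and OAS1 (-3.63 ± 0.05, adjusted p = 1.7e-12), followed by MX1 (-2.07), MX2 (-2.07), TRIM22 (-2.03) and OAS3 (-1.81). Among the 12 tested genes of RNA and virus restriction 10 were lower, among the 4 transcription factors 0. With quantile normalization 16 members were lower and 1 was higher, and the share of lower genes among all called went from 68% to 50.4%. That split by direction is not a background for the 16 members. IFITM1, which fell in both genotypes, was lower in MLL1-KO (-1.50).

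**Figure D5:**
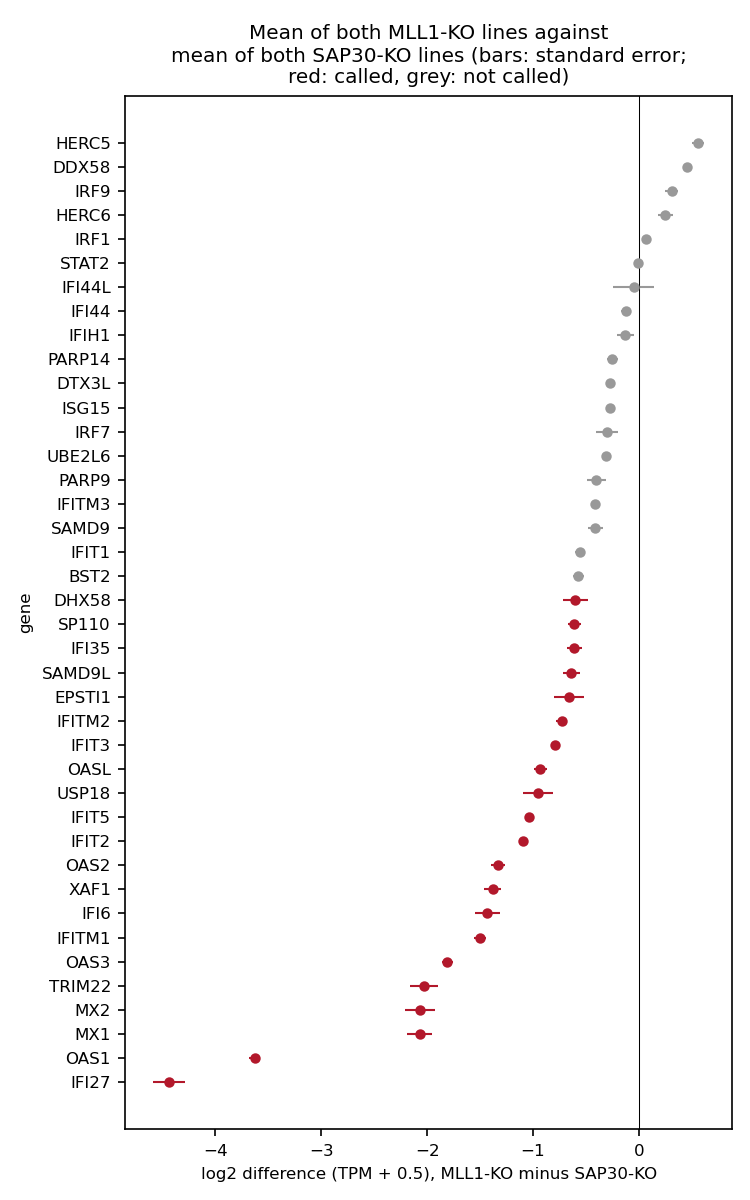
Log2 difference of the mean of both MLL1-KO lines minus the mean of both SAP30-KO lines on the horizontal axis, with its standard error, for the 40 tested genes in order of size. Red points are the 21 called members, all lower in MLL1-KO, from IFI27 at -4.44 to DHX58 at -0.60.

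Against the SIN3A/3B-DKO lines, 14 members were lower in MLL1-KO and 5 were higher, where 13% of all genes were lower and 6.91% higher. IFI27 (-3.95 ± 0.15, adjusted p = 1.8e-09) and OAS1 (-2.54 ± 0.05, adjusted p = 2.2e-11) were again the most different, and the higher members were IRF7, IRF9, DDX58, HERC5 and IFI44L (0.78, 0.86, 0.73, 0.69 and 0.68). These are means of unlike lines: the MLL1-KO1 libraries overlapped those of SIN3A/3B-DKO for IRF7, HERC5 and IFI44L, and the MLL1-KO2 libraries were above all of them for each of the 5 genes. SAP30-KO lines were higher than SIN3A/3B-DKO lines for 8 members and lower for 0, beside 4.22% and 3.25% of all genes. Those 8 were IRF7, OAS1, OAS2, OAS3, IFITM1, BST2, IFI44 and IFI44L, with the most in IFITM1 (1.55 ± 0.06, adjusted p = 1.6e-08) and OAS2 (1.38 ± 0.07, adjusted p = 6.9e-08). IFI44L, which is in both of these lists of higher members, was tested only because of its levels in edited lines.

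Other genes of the interferon pathway were taken from a wider list. The 59 genes listed were interferons, receptors, kinases, STATs, other interferon regulatory factors, sensing proteins and restraining factors. Of these, 37 were found by name and 31 were tested. None of the listed interferon genes was found by name, so interferon RNA was not examined. Those called were 1 higher and 0 lower in each SAP30-KO line, 0 higher and 2 lower in SIN3A/3B-DKO1, 1 higher and 2 lower in SIN3A/3B-DKO2, 2 higher and 3 lower in MLL1-KO1, and 5 higher and 3 lower in MLL1-KO2. The shares of all genes given above for the same lines, 6% to 10.2% higher and 7.56% to 16.3% lower, are the background for these counts out of 31, and every count but the 5 higher in MLL1-KO2 lies under it. STAT3, which carries signals of interleukins, fell in MLL1-KO1 (-1.06 ± 0.03, adjusted p = 4.5e-10) and MLL1-KO2 (-0.78 ± 0.03, adjusted p = 3e-09), and so did the receptor chain IFNAR2 (-0.62 and -0.59). SOCS1, a feedback inhibitor of JAK kinases, rose in MLL1-KO1 (1.20 ± 0.18, adjusted p = 0.00015) and MLL1-KO2 (1.56 ± 0.18, adjusted p = 1.8e-05), as did MAVS, the adaptor of the RNA sensors (0.80 and 1.10). TMEM173 (STING) and TICAM1 rose in MLL1-KO2 (0.90 and 0.60), and SOCS3 fell in MLL1-KO1 (-0.66). In the SIN3A/3B-DKO lines TLR3, a sensor of double-stranded RNA in endosomes, fell (-1.01 ± 0.12, adjusted p = 4e-05, and -1.06 ± 0.12, adjusted p = 3.3e-05), as did the receptor chain IL10RB (-0.59 and -0.66). MAVS also rose in SAP30-KO2 (0.73), and IL10RB fell in MLL1-KO2 (-0.73).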

How the data were processed

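mRNA libraries were made by the authors with the KAPA mRNA HyperPrep kit and sequenced on an Illumina NextSeq, and FastQC 0.11.2, TopHat and featureCounts are named in the submitters' processing notes, with hg19 as the build; versions of the last tools and the strand setting are not given in the sources used here, so reads of overlapping antisense genes cannot be told apart. The authors deposited 1 table, not pooled, with values named RPKM. Every column adds up to the same total, so the deposited values were taken as TPM, in which genes share a fixed total and a gain for some is a loss for others. The design had been written for RPKM, and the same test was kept. Whole reads were recovered for 18519 of 18519 genes with a value above 0 (100.0%, within 0.02 reads), from 18415036 to 23162682 per library. Intervals on reads are exact at 95% and cover counting error only.

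Genes at 1 TPM or more in at least 2 of 14 libraries were fitted as log2(TPM + 0.5) in R 4.3.3 by limma 3.58.1 (7 group means, variance trend), and adjusted by Benjamini-Hochberg over 13540 genes. Standard errors follow the ± sign and come from a spread estimate shared by all groups. Replicates were not equally alike. The chi-square of their reads per degree of freedom, higher when less alike, was 8 in SIN3A/3B-DKO2, 3.77 in SAP30-KO1 and 1.47 to 2.25 elsewhere. Standard errors for SIN3A/3B-DKO2 may thus be too small. With only the libraries compared, IFI27 and TRIM22 lost their calls there (limma adjusted p = 0.054 and 0.088). A gene was called at an adjusted p under 0.05 and at least 1.5-fold. The procedure was tested on simulated reads that had the same extra spread in every gene and library, unlike the data. That test does not show how the procedure performs at unequal spread. hg19 positions came from GENCODE v44lift37 and promoters from RefSeq (GRCh38.p14). Groups came from the labels, which name no batch. Members and lists were chosen with earlier results of these data known. Values per library were given for the 3 largest called changes in each direction in each line, for members called in both lines of 1 genotype and no other, and for STAT2, IRF9, IRF1, IRF7, DDX58, IFIH1, DHX58, ISG15, OAS1 and MX1. IFIT2, IFIT3, OAS3, MX2 and XAF1 were added after values were seen. Some genes of the pathway and marker lists enter the counts and sums but are not reported here by name. Alternatives were other pseudocounts, filters, fold minimums, scalings, subtraction of neighbouring genes, a replicate block, single libraries left out, and limma voom on recovered reads.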

Additional observations from a re-analysis of the deposited data

Results flagged for a closer look

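Tests of the difference itself singled out 5 results in which groups moved in opposite directions from parental cells. The mean of both MLL1-KO lines differed from the mean of both SAP30-KO lines by -4.44 on the log2 scale for IFI27, by -2.07 for MX2 and by -1.81 for OAS3, since these RNAs rose in the SAP30-KO lines and fell in the MLL1-KO lines. IFI27 also differed by -3.95 between the MLL1-KO and the SIN3A/3B-DKO lines. IRF7 differed by -1.57 between MLL1-KO1, where it fell, and MLL1-KO2, where it rose. The parental libraries enter these tests only through the shared estimate of the spread. The causes were not tested.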

How the results depend on the processing

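Of the 82 called changes of members from parental, 34 kept their call under every alternative that gave a value, and none changed direction. The 2-fold minimum alone left 34 and took 48, so the 34 reflects that stricter threshold. A changed fold minimum reuses the main estimates and could not change a direction. The filter of at least 5 TPM gave a value for 67 of the 82. The alternatives gave 1297 values, 1177 on the same side of the threshold and 120 not. The replicate block changed no call, leaving 82 of 82. Same-numbered libraries showed no shared deviation, with a mean correlation of 0.01 over 21 pairs of groups (-0.07 to 0.08). Whether they were handled together cannot be told from this, and the labels do not say.

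Without a fold minimum, 27 members were called in SAP30-KO1 and 22 in SAP30-KO2 against parental, 25 and 27 in the SIN3A/3B-DKO lines, and 33 in each MLL1-KO line, where 51%, 51.7%, 56.0%, 49.6%, 60.5% and 64.2% of all genes were called. With a 2-fold minimum the counts were 7, 3, 3, 2 and 8 in the same order and 11 in MLL1-KO2, beside 5.2% to 11.8% of all genes. In the direct comparisons, the counts without and with a 2-fold minimum were 5 and 0 between the SAP30-KO lines, 10 and 0 between the SIN3A/3B-DKO lines, 30 and 6 between the MLL1-KO lines, 32 and 5 for SAP30-KO against SIN3A/3B-DKO, 35 and 12 for MLL1-KO against SAP30-KO, and 33 and 6 for MLL1-KO against SIN3A/3B-DKO. The shares of all genes in that order were 0.524% and 0.0443%, 12.5% and 0.82%, 42.1% and 3.16%, 48.6% and 2.13%, 67.8% and 8.58%, and 67.8% and 8.85%. Fitting only the libraries compared gave 0 between the SAP30-KO lines and 1 between the SIN3A/3B-DKO lines, where a pseudocount of 1 gave 1 and limma voom on recovered reads, added after the data were seen, gave 5. Pathway genes called without a fold minimum were 16, 14, 16, 16, 21 and 25 of 31 in the 6 lines, beside the same shares of all genes as above, and with quantile normalization 2 in each SAP30-KO line and 3 in MLL1-KO1.

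With single libraries left out, the counts ranged from 14 to 16, 8 to 9, 7 to 10, 6 to 9, 18 to 22 and 19 to 22 in the 6 lines. The direct comparisons in the order above gave 0 to 0, 1 to 4, 12 to 14, 7 to 10, 18 to 22 and 18 to 21. For these ranges the share of all genes called is not given. The same holds for the counts with only the libraries compared, a pseudocount of 1, limma voom or quantile normalization. They describe the number of members called and not its standing against all genes. The planned count test with edgeR was not run because the deposited unit is TPM. A filter of at least 5 TPM left no value for low members. Genes with a few reads, such as MX1, MX2, TRIM22, DHX58, USP18 and IFI44L, are limited by depth, and 2 libraries per group limit every comparison.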
